A study of Caenorhabditis elegans with 2 samples.

Results

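Chromatin immunoprecipitation and sequencing (ChIP-seq) of the nuclear hormone receptor NHR-102 was examined at 6 regulator genes of lipid metabolism, nhr-49, nhr-80, nhr-13, nhr-66, mdt-15 and sbp-1, of 19985 protein-coding genes in the Caenorhabditis elegans annotation. The genes were chosen by name, and every peak summit from 5000 bp upstream of the most upstream annotated 5' end to the end of the gene was taken. All samples came from strain OP463, which has the genotype unc-119(tm4063) III; wgIs463 and stably expresses NHR-102 with a C-terminal GFP-FLAG tag. Whole hermaphrodites were collected as L4 larvae, 50 h after synchronization by starvation at L1, and the immunoprecipitation used an anti-GFP antibody according to the description, while the antibody label names nhr-102. Whole animals were used, so tissues cannot be told apart. The 2 biological replicates form the only group, and no untagged strain was analysed here, so binding by NHR-102 and other sources of precipitated DNA cannot be told apart.

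The 6 genes encode parts of a well-known circuit that sets fat storage and fatty acid composition in the worm. NHR-49 is a receptor of the HNF4 type that promotes fatty acid desaturation and beta-oxidation, especially in fasting. NHR-80, NHR-13 and NHR-66 are related receptors that act with it on separate groups of target genes: NHR-80 on the stearoyl-CoA desaturases and NHR-66 on genes of sphingolipid and lipid remodelling. MDT-15 is the Mediator subunit that serves both NHR-49 and SBP-1 as a coactivator, and SBP-1 is the worm homologue of the sterol regulatory element binding protein, which drives the synthesis of unsaturated fatty acids.

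Peak signals are the authors' own values and can be compared only within a list, and the lists give no read depth. The optimal list, made with the irreproducible discovery rate and referred to as the IDR list, had 2796 peaks. These were exactly the 2796 strongest of the 30000 pooled peaks, with the same intervals, summits and signals, down to a signal of 90.5. Presence in the IDR list therefore shows a pooled signal at that level or above. Replicate values are given beside each IDR peak of the regulator genes. For most of the other lipid genes named below only the pooled signal is given, which does not by itself show support by both replicates. Of all pooled peaks 95.6%, and of the IDR peaks 59.5%, had a width of 444 bp, and neighbouring peaks often overlapped.

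Sequences are shown for 5 summits of mdt-15, nhr-80 and nhr-13, so that their letters can be set beside those of all peaks. The 3 strongest summits, of nhr-49 and nhr-66, were searched for the same motifs and are not printed. Each runs 50 bp to both sides of a summit, 5' to 3' on the strand of the named gene, from the RefSeq sequence of WBcel235, which is the same assembly as ce11. Capitals mark matches, on either strand, to 1 of 6 motifs searched.
mdt-15, distal summit, chrIII:5838292-5838392: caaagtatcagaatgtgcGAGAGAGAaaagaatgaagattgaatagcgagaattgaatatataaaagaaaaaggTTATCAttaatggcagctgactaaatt
mdt-15, coding exon, chrIII:5832377-5832477: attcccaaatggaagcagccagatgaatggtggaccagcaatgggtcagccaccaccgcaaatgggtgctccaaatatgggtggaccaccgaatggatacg
mdt-15, proximal summit, chrIII:5834143-5834243: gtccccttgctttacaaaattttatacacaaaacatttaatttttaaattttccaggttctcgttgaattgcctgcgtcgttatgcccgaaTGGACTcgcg
nhr-80, promoter, chrIII:15038-15138: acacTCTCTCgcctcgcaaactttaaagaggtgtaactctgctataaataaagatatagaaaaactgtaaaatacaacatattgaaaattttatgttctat
nhr-13, promoter, chrV:2192344-2192444: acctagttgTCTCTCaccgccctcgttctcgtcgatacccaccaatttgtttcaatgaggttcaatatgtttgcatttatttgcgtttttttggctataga

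Of these 5 windows, only the distal one of mdt-15 belongs to a peak of the IDR list. Its capitals are the GA repeat GAGAGA, in overlapping copies, and the GATA site TGATAA, read here from the other strand. The nhr-80 and nhr-13 windows each held GAGAGA on the opposite strand, the proximal mdt-15 window held AGTCCA, a core of HNF4-type sites, and the exon window held none of the 6. The AGTCCA match lies where that window runs into the start of the neighbouring coding gene R12B2.6. The other motifs were AGGTCA, the core of many nuclear receptor sites, the E-box CACGTG, and the GC-rich TTGCGC, and no match of 1 motif overlapped a match of another in the windows printed. GAGAGA was present in 3 of the 4 windows of IDR summits at these genes (nhr-49, the stronger summit of nhr-66, and mdt-15), against 18.7% of all 2796 IDR windows and 8.76% of all 30000 pooled windows. The receptor cores were in none of these 4 windows, and AGGTCA stood in 2.97% and the HNF4-type core in 2.15% of all IDR windows. The E-box (6.83% of all) and TTGCGC (6.87%) were in none of the 4 either. TGATAA was in 1 of the 4 and in 16.9% of all. A match describes the letters alone.

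NHR-102 peaks of the IDR list stood in the regions of 3 of the 6 genes. The genes nhr-49, nhr-66 and mdt-15 had 1, 2 and 1 summits, while nhr-80, nhr-13 and sbp-1 had none. For comparison, 18.7% of all protein-coding genes had an IDR summit in a region drawn the same way (3737 of 19985). Within a promoter window, which began 1000 bp before any annotated 5' end and ended 200 bp after it, 2 of the 6 had a summit, nhr-49 and nhr-66, against 8.95% of all protein-coding genes. With 6 genes chosen with earlier results of these data known, no test was made of either count. Of the 269 genes named nhr, the family that 4 of the 6 belong to, 22.7% had a region summit and 13.4% a promoter summit. The regions of the 6 genes measured 7885 to 19200 bp, longer than the median of 7026 bp over protein-coding genes, and longer regions have more room for a summit. The 4 IDR summits made 0.556 per 10 kb over the 71.9 kb of the regions, against 0.279 per 10 kb over the genome.

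The pooled list held 55 summits in the regions, 7.65 per 10 kb, against 2.99 per 10 kb over the genome. Merging overlapping peaks, a setting added after the data had been seen, left 31 of the 55, and 22450 of the 30000 in the whole list. Of the 55, 27 had a 5' end of the gene itself as the nearest protein-coding 5' end, and 16 lay in a promoter window of the gene. By annotation, 14 were intergenic, 18 in introns, 14 in coding exons and 9 in untranslated regions of these genes or their neighbours. Overlapping peaks count singly in these numbers. The same shares over all pooled summits are not given here, so the placement is not read as particular to these genes.

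**Figure D1:**
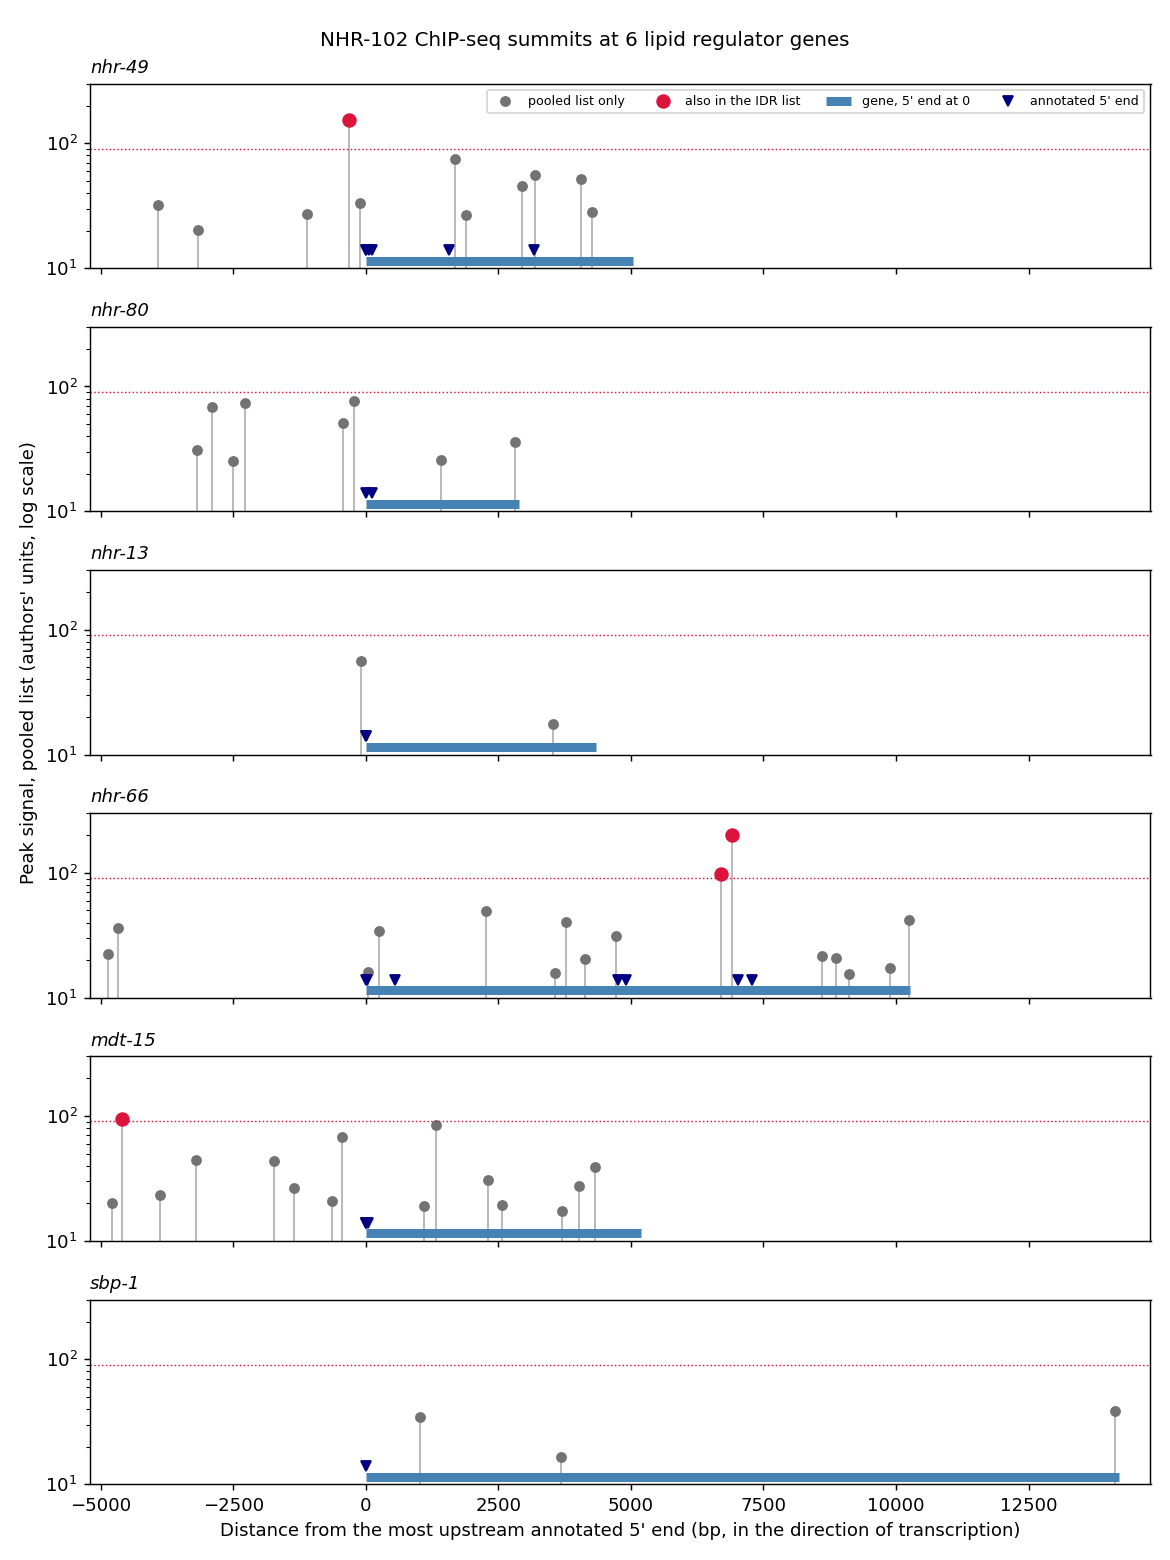
Pooled-list summits at each of the 6 genes. The horizontal axis is the distance from the most upstream annotated 5' end in bp, the vertical axis the peak signal in the authors' units on a log scale, red points are also in the IDR list, triangles mark annotated 5' ends, the blue bar is the gene, and the dotted line is the lowest IDR signal, 90.5. Red points stand in nhr-49, nhr-66 and mdt-15, and the highest of them, 199.6, stands within nhr-66, beside its downstream 5' ends.

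The gene nhr-49 (WBGene00003639; I, 9869651 to 9874680, plus strand) had its single IDR peak just upstream of the gene. The peak (I, 9869116 to 9869559) had its summit in intergenic sequence, -313 bp from the most upstream 5' end, negative values being upstream. It lay between nhr-49 and the gene before it, K10C3.5, and no other gene started closer to it than nhr-49. The pooled signal was 153, rank 1253. The signal was 94.6 (rank 1001) in replicate 1 and 55.4 (rank 2276) in replicate 2, and both replicates placed the summit within 4 bp of the pooled one. Both thus put this peak among their own 2796 strongest, with replicate 1 the higher in rank. Among protein-coding genes, 10.1% had a region whose strongest pooled signal was as high or higher.

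The 7 annotated transcripts of nhr-49 start at 6 positions, which fall into 3 groups along the gene. The IDR summit lay -313, -314, -380 and -429 bp from the 4 ends of the first group, and -1890 and -3484 bp from the internal ends. Weaker pooled summits stood beside both internal groups. One lay 107 bp downstream of the 5' end shared by K10C3.6a.1 and K10C3.6b.1, with a pooled signal of 74.8 (rank 3711). The matching summits had signals of 45.2 (rank 3602) in replicate 1 and 33.7 (rank 5399) in replicate 2, and replicate 1 had a stronger one, 47.5, at -109 bp from that end. Another lay in a coding exon, 14 bp downstream of the 5' end of K10C3.6e.1, with a pooled signal of 56.0 and replicate signals of 44.5 (rank 3686) and 15.6 (rank 18945). In both replicates the order of the groups was the same, with the upstream group highest and the most internal lowest.

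In nhr-66 (WBGene00003656; IV, 8226331 to 8236602, minus strand) the IDR summits lay inside the gene, not at its upstream end. The stronger peak (IV, 8229631 to 8229831) had the highest signal at any of the 6 genes, 199.6, rank 805, and its summit was 6903 bp downstream of the most upstream 5' end. Relative to the internal 5' ends, it lay -122 bp from that of T09A12.4j.1 and -372 bp from the one shared by T09A12.4e.1 and T09A12.4i.1. The replicate signals were 107 (rank 800) and 92.8 (rank 956), so that this was the peak with the closest replicate ranks among the 4 IDR peaks of these genes. Of all protein-coding genes, 6.75% had a region with a strongest pooled signal as high or higher. The second IDR peak (IV, 8229679 to 8230122) overlapped the first, with its summit 202 bp farther upstream, at -324 bp from T09A12.4j.1. Its pooled signal was 97.2 (rank 2512). Its replicate signals were 31.2 (rank 6743) in replicate 1 and 54.6 (rank 2318) in replicate 2, so by the nearest summit only replicate 2 had it among its 2796 strongest.

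The 10 transcripts of nhr-66 start at 7 positions in 3 groups. Each summit was given to its nearest 5' end and kept where it fell in the window of that end. At the most upstream group the strongest such summit had a signal of 11.3 in replicate 1 and 15.1 in replicate 2, with pooled signal 16.0. A summit with a pooled signal of 34.4 lay 221 bp downstream of its nearest 5' end, that of T09A12.4c.1, and so was not counted, although it is also upstream of the end of T09A12.4d.1. At the middle group the strongest replicate signals were 15.7 and 17.9. The strongest pooled summit there had a signal of 40.5, at -993 bp from the end of T09A12.4b.1. Replicate 1 also had a signal of 23.9 at -1120 bp from that end, outside the window. The downstream group, with 107 and 92.8, stood highest in both replicates. Both IDR summits lay in an exon that a single model, T09A12.4b.1, annotates as 5' UTR (8229355 to 8231838), while the short transcripts start downstream of them. Because trans-splicing is common in the worm, the true transcription start may lie upstream of an annotated 5' end.

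**Figure D2:**
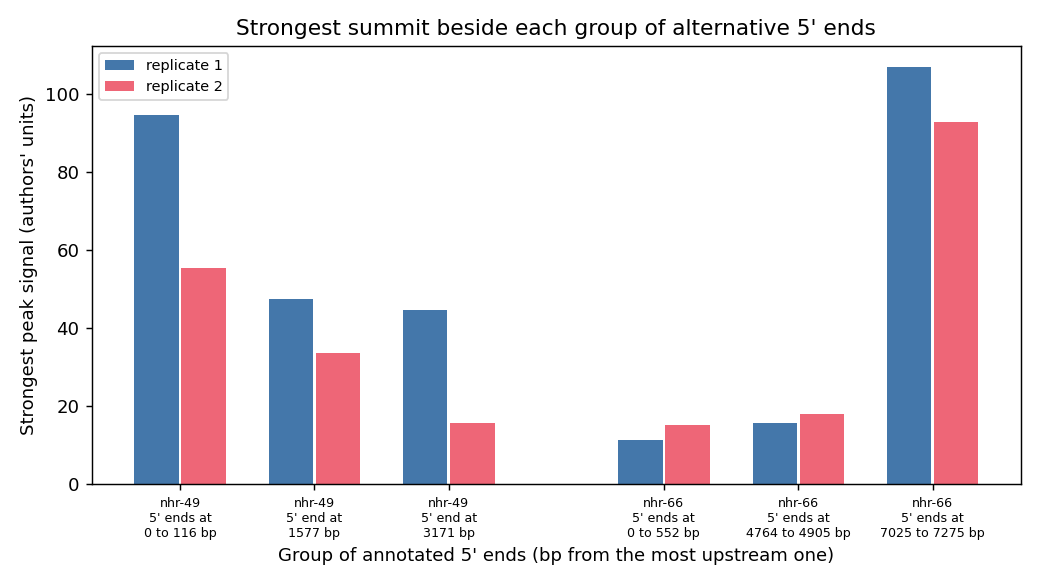
Strongest replicate signal in the promoter window of each group of alternative 5' ends of nhr-49 and nhr-66, each summit given to its nearest own 5' end. The horizontal axis names the group by its distance from the most upstream 5' end in bp, the vertical axis is the signal in the authors' units, and the bars are single values of replicate 1 and replicate 2. In nhr-49 the first group is highest (94.6 and 55.4), and in nhr-66 the last (107 and 92.8).

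The receptor genes nhr-80 and nhr-13 had no IDR summit, but the strongest pooled summit of each lay directly upstream of the gene. At nhr-80 (WBGene00003670; III, 11985 to 14869, minus strand) it stood at -219 bp with a pooled signal of 76.7, rank 3574, below the IDR limit of 90.5. The replicates differed there. In replicate 1 the matching summit had a signal of 19.7 (rank 14292), and the strongest one near the 5' end was 25.4 (rank 9522), at -33 bp. In replicate 2 the signal was 54.3 (rank 2335) at the same base as the pooled summit, so this replicate alone placed nhr-80 among the genes of its 2796 strongest peaks. A second pooled summit at -427 bp had a signal of 51.0. Both summits also lay in the promoter window of the neighbouring gene H10E21.1, which is transcribed away from nhr-80. A replicate 1 summit at -558 bp from nhr-80 lay -345 bp from a 5' end of H10E21.1 and so was nearer to that gene. Farther upstream, summits at -2287 bp (pooled signal 74.0) and -2899 bp (69.04) lay in the neighbouring genes H10E21.1 and H10E21.4. At -2287 bp, replicate 1 had a signal of 47.2 (rank 3336). In replicate 2 the nearest summit had 12.9 (rank 23597), and a stronger one at -2163 bp, whose peak also spans the position, had 37.1 (rank 4568). At -2899 bp the signal was 29.5 (rank 7422) in replicate 1 and 42.0 (rank 3663) in replicate 2, which thus ranked it higher.

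At nhr-13 (WBGene00003612; V, 2192485 to 2196827, plus strand) the pooled list held only 2 summits. The stronger, at -91 bp, had a pooled signal of 56.3 (rank 5851) and replicate signals of 22.8 (rank 11369) and 27.3 (rank 7874), with summits at -108 and -94 bp. Both replicates thus placed a weak summit close to this 5' end, outside their 2796 strongest. The other, in an intron, had a pooled signal of 17.7, near the lowest of the list, 15.5. Of protein-coding genes, 30.8% had a region with a strongest pooled signal at or above that of nhr-13, and 22.4% at or above that of nhr-80.

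The Mediator gene mdt-15 (WBGene00007016; III, 5828557 to 5833751, minus strand) had the most crowded region, with 15 pooled summits, 14.7 per 10 kb. A density as high or higher was found in 0.640% of protein-coding genes, with a median of 1.41 per 10 kb. With overlapping peaks merged the number was 8, at 7.85 per 10 kb, and 4.46% of genes reached it. The same merging left 3 of 8 at nhr-80, 7 of 11 at nhr-49 and 8 of 16 at nhr-66. The single IDR peak (III, 5838120 to 5838563; signal 94.1, rank 2647) was distal, with its summit -4591 bp from the most upstream 5' end of mdt-15. Its nearest annotated 5' end was that of the noncoding RNA gene W04D12.2, at -513 bp, and the nearest protein-coding one was that of W04D12.1. It was the weakest of the 4 IDR peaks at these genes and stood near the limit of 90.5. Replicate 1 had a signal of 46.6 (rank 3417) there, with a summit 5 bp away, and replicate 2 had 60.7 (rank 1981), with a summit 104 bp away.

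Just below the IDR limit, mdt-15 had a summit inside the gene that both replicates placed almost at the same base. It lay in a coding exon, 1324 bp downstream of the most upstream 5' end, with a pooled signal of 84.7 (rank 3060). The nearest annotated 5' end was that of the coding gene R12B2.13, with the summit 1049 bp downstream of it. The replicate signals were 46.6 (rank 3406) and 38.7 (rank 4263), at 2 and 0 bp from the pooled summit. A proximal summit at -442 bp had a pooled signal of 67.96 and replicate signals of 30.6 and 38.7. The closest annotated 5' end belonged to the coding gene R12B2.6, at -40 bp, and not that of mdt-15. No pooled summit in the region thus combined the IDR level with mdt-15 as the nearest gene.

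The SREBP gene sbp-1 (WBGene00004735; III, 11428367 to 11442566, minus strand) had the longest region, and of the 6 the lowest density of pooled summits. Its 3 pooled summits made 1.56 per 10 kb, near the median of 1.41 per 10 kb over protein-coding genes, 48.4% of which had as many per length or more, and all 3 lay in coding exons. In replicate 2 the density was lowest at nhr-13, with 1.07 per 10 kb against 1.56 at sbp-1. The strongest, 38.4 (rank 10880), stood at the far end of the gene, 14121 bp from the 5' end, where idpc-1 is the nearest gene by 5' end. Its replicate signals were 15.6 and 19.1, with summits at 1 and 0 bp from the pooled one. Near the 5' end the promoter window held no summit in the pooled list or in replicate 2, and 1 in replicate 1, with a signal of 10.9 (rank 28238). A summit at -2467 bp had a signal of 42.1 (rank 4064) in replicate 1, the highest for this gene in that list, and had no counterpart in the pooled list or in replicate 2.

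The replicates were compared at each pooled summit in the regions. Of the 55, 34 lay within a peak of each replicate, and 20 had a summit of both replicates within 100 bp. The same shares over all pooled or IDR peaks are not given here. These counts therefore do not set the 6 genes apart from other genes. All 4 IDR summits lay within peaks of both replicates, and 3 of them had both summits within 100 bp, the exception being the distal mdt-15 summit. The nhr-49 peak and the stronger nhr-66 peak were among the 2796 strongest of both replicates, as were 67.1% of all IDR peaks by their nearest replicate summits, and the other 2 were among those of replicate 2 only. With the 2796 strongest peaks of a replicate in place of the IDR list, replicate 1 alone gave a summit in 2 of the 6 regions (nhr-49 and nhr-66), where 18.7% of all protein-coding genes had one, and in a promoter window of the same 2, against 8.65% of all. Replicate 2 alone gave 4 (nhr-49, nhr-80, nhr-66 and mdt-15), against 18.7% likewise, and a promoter summit in 3, all of these but mdt-15, against 8.4% of all.

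**Figure D3:**
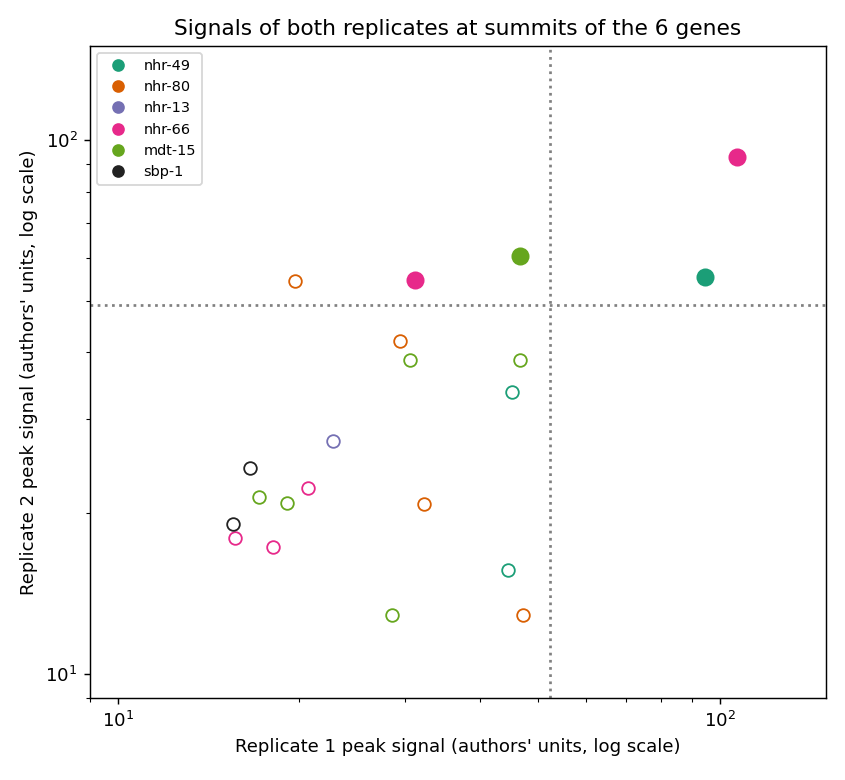
Replicate signals at 21 pooled summits of the 6 genes, those with summits of both replicates within 100 bp together with the distal mdt-15 peak. Both axes show the authors' signal on log scales, filled points are in the IDR list, open points are not, colours are genes, and dotted lines are the signals at rank 2796 in each replicate (52.3 in replicate 1 and 49.1 in replicate 2). A filled point of nhr-49 and one of nhr-66 lie beyond both lines, and the open nhr-80 point beyond the replicate 2 line alone has 19.7 in replicate 1 and 54.3 in replicate 2.

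Promoter peaks of nearly the same strength served as neighbours in rank. Next to nhr-49 (153), the promoter peaks just above and below belonged to K06G5.1 on X and H37A05.4 on V, both also at 153. Their replicate ranks were 2311 and 942 for K06G5.1, and 291 and 1727 for H37A05.4, so a like pooled signal came with quite different replicate ranks. Next to nhr-66 (199.6) stood the window shared by the ribosomal protein genes rpl-24.1 and rps-10 (199.6; replicate ranks 702 and 994) and that of F46H5.2 (199.3; replicate ranks 879 and 877). The likeness is that of 1 pooled value, over 2 replicates.

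Other genes of the lipid circuit were counted from 5 lists, of which 101 genes were matched by name and 22 (21.8%) had an IDR summit in a promoter window, against 8.95% of all protein-coding genes. These lists were likewise drawn up with earlier results of these data known, and no test was made. The listed genes are no random draw, so the intervals below do not test a difference from all protein-coding genes. Of fatty acid and lipid synthesis genes, 6 of 18 had one (33.3%, exact Clopper-Pearson 95% interval 13.3 to 59.0%). They were dgat-2, an acyltransferase of triglyceride synthesis, in a window shared with fbxa-108 (signal 231), the desaturase fat-4 (172), the elongases elo-6 (135) and elo-1 (127), the acyltransferase acl-6 in a window shared with F08F3.8 (120.1) and mvk-1 of the mevalonate route (103). Among targets of NHR-49 in desaturation and beta-oxidation, 3 of 15 had one (20%, interval 4.33 to 48.1%): the acyl-CoA synthetase acs-2 (209.7), the carnitine palmitoyltransferase gene cpt-2 in a window shared with C08F8.9 (195) and ech-1.2 (96.7).

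The desaturase genes fat-5, fat-6 and fat-7, well-known targets of NHR-49 and NHR-80, had no IDR summit in a promoter window. At fat-6 a summit at -215 bp came close to the limit, with a pooled signal of 84.8 (rank 3052) and a signal of 57.8 (rank 2318) at -227 bp in replicate 1. The strongest summit of replicate 2 in that window was elsewhere, 82 bp downstream of the 5' end, with a signal of 33.2 (rank 5551). At fat-7 the window held a summit in replicate 2 only (19.1, rank 14398), and at fat-5 it held none in any of the 4 lists. In the wider gene region, each of the 3 had 1 IDR summit, nearer to another gene's 5' end. For fat-5 it lay at -3076 bp (signal 226, replicate ranks 773 and 645), with str-77 the nearest coding gene. For fat-6 it lay at -1358 bp (127, replicate ranks 1372 and 2896), and -92 bp from ZK822.10. For fat-7 it lay at -4084 bp (189.8, replicate ranks 990 and 999), in the 5' UTR of ugt-39. All 3 peaks were thus in the IDR list, outside the promoter windows of the desaturase genes.

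Among further nuclear receptors with metabolic roles, nhr-102 included, 5 of 18 had a promoter summit (27.8%, interval 9.69 to 53.5%), beside 13.4% of all genes named nhr. They were nhr-68, which activates the propionate shunt and shares its window with H12C20.7 (648), nhr-8, of sterol and xenobiotic responses (128), nhr-105 (127), nhr-114 (121) and nhr-69 (110.2). In replicates 1 and 2 the strongest summits in these windows ranked 78 and 86 for nhr-68, and 991 and 3145 for nhr-8. Those of nhr-105 ranked 2263 and 1609, and those of nhr-114 ranked 1717 and 1954. Those of nhr-69 ranked 3017 and 3302, outside the 2796 strongest of both replicates. The receptor nhr-102 itself had no summit in its region in any of the 4 lists. Mediator subunits, the partners of MDT-15, had 6 of 28 (21.4%, interval 8.30 to 41.0%), led by mdt-19 in a window shared with apb-1 (306), mdt-6 in one shared with 2 other genes (250.1) and mdt-26 in one shared with ift-43 (197), followed by mdt-22 (160.2), mdt-4 (123) and mdt-9 in a shared window (105.1). Genes of phosphatidylcholine synthesis and methyl donors, which act upstream of SBP-1, together with lysosomal and Mondo-family factors, had 2 of 22 (9.09%, interval 1.12 to 29.2%), namely the folate enzyme gene mthf-1 (133) and the lipophagy regulator hlh-30 (132). The median signals of the genes with a summit were 131 for synthesis, 195 for targets, 127 for receptors, 178 for Mediator and 132 for the last list, against 150.5 for all 1789 protein-coding genes with one.

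In the gene region, which reaches 5000 bp upstream, the lists had more genes with an IDR summit, 49 of the 101 (48.5%), against 18.7% of all protein-coding genes. By list these were 10 of 15 NHR-49 targets (66.7%), 11 of 18 synthesis genes (61.1%), 12 of 22 genes of the phosphatidylcholine list (54.5%), 7 of 18 receptors (38.9%) and 9 of 28 Mediator genes (32.1%). The nearest gene to a region summit can be another one, as at the 3 desaturase genes, and 1 peak can count for more than 1 gene. Region lengths of the listed genes are not given here, and longer regions have more room for a summit. The promoter counts also moved between replicates. With the 2796 strongest peaks of each, the synthesis list had 4 of 18 in replicate 1 and 7 in replicate 2. The receptor list had 5 of 18 and 3, in the same order, and the Mediator list 7 of 28 and 5. The NHR-49 targets had 4 of 15 and 3, and the phosphatidylcholine list 3 of 22 and 1. Of all protein-coding genes, 8.65% had a promoter summit in replicate 1 and 8.4% in replicate 2.

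**Figure D4:**
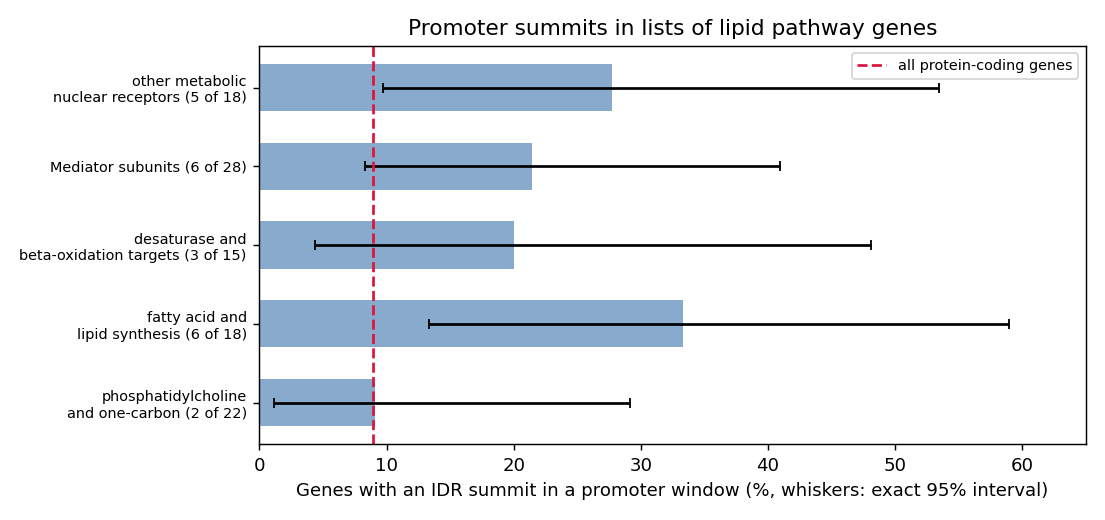
Share of genes with an IDR summit in a promoter window in 5 lists of lipid pathway genes. The horizontal axis is the share in percent, bars are the shares, whiskers are exact 95% intervals of counting error, and the dashed line is the share of all protein-coding genes, 8.95%. The bars run from 9.09% for the phosphatidylcholine list to 33.3% for the synthesis list, and the intervals are wide because the lists are short. The genes were not drawn at random, so the whiskers do not test a difference from the dashed line.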

How the data were processed

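Peak lists of both replicates, of the replicates pooled and of the optimal IDR set, in build ce11, were used. Per the labels and the deposited notes, each replicate list was derived from that replicate's alignments and 1 further file that both share, whose nature is not stated, and the optimal list from the replicate and pooled lists. For the aligner, the peak caller and the IDR cutoff, no name, version or value is given in the sources used here. Signal is deposited by the authors for every peak in units of their caller and was used only within a list. A summit was the peak start plus the deposited offset in bp, written from 1. No depth is given, so intervals (exact, 95%) cover counting error over genes only.

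Genes, transcripts and 5' ends were taken from Ensembl release 115 (WBcel235, the sequence of ce11), and all peaks ended within its chromosomes. A replicate peak was matched to a summit when its interval held it, the nearest summit being taken. Lists in ce10 were not used here. The members, gene lists and motifs were chosen with earlier results of these data known. Named were all 6 genes, their summits in the IDR list and the strongest summits in the others, the promoter peaks next in signal, up to 6 genes per list, fat-5, fat-6, fat-7, acs-2 and nhr-102. Of the listed names, let-425, mdt-1.1, pqn-38 and arf-1.2 matched no gene. The counting of summits was tested on simulated data, with 200 of 200 planted summits recovered. These were planted 100 bp upstream of genes, inside both windows. The check therefore covers the counting code only, and not internal 5' ends, shared windows or overlapping peaks. Calculations used Python 3.11.15, pandas 2.3.3 and SciPy 1.17.1.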

Additional observations from a re-analysis of the deposited data

How the results depend on the processing

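The 3 genes with an IDR summit in the region became 2 with 2000 or 1000 bp upstream, in the 1398 strongest IDR peaks, or with summits given to the nearest protein-coding 5' end, since mdt-15 dropped out where the region or the limit was narrowed. The count of IDR summits, 4 as reported, was 2 among the 1398 strongest, and ranged from 2 to 5 with the 2796 strongest peaks of 1 replicate in its place. The count of genes with a promoter summit, 2 as reported, was 1 when only the most upstream 5' end was used, since the nhr-66 summits lie at internal 5' ends, and 2 or 3 with 1 replicate. The 2796 strongest pooled peaks are the IDR list itself, so that alternative changed nothing by construction. Shares of all protein-coding genes are given above only for the reported setting and for 1 replicate. For the other settings they are not given here, so those counts are not compared with other genes. Merging overlapping pooled peaks left 31 in place of 55 summits. Whether weak summits beside strong ones are separate sites was not tested. No paired analysis was possible because the series holds a single group. Depth is unknown from these lists.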
